A study of Rattus norvegicus with 8 samples.

Results

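The genes described here code for the proteins of the cytosolic ribosome, and were read in RNA-seq counts of primary rat nucleus pulposus (NP) cells with and without Sirt6 knockdown. They were chosen by symbol, as Rpl or Rps followed by a number with an optional a, x or y, together with Rpsa and the P-stalk genes Rplp0, Rplp1 and Rplp2. This rule matched 76 rows of the 13612 named rows and 70 symbols, 43 of the large subunit and 27 of the small subunit, and for the 5 symbols with more than 1 row the row with the highest total was used. Of the 77 standard symbols of this form, Rpl10a, Rpl23a, Rplp1, Rps7, Rps9, Rps13 and Rps26 had no named row and were not analysed here. The cells came from adult Sprague Dawley rats, grew in DMEM with 10% FBS, and were transduced with lentivirus, either with 3 ShSirt6 clones mixed (Sirt6-KD, libraries S5 to S8) or with a control ShRNA (Sirt6-Ctrl, libraries S1 to S4), with puromycin selection in both groups. Both groups are therefore cultured, virus-transduced populations rather than disc tissue. The methods describe a final culture in hypoxia for protein samples, and whether the RNA samples had it too is not given in the sources used here. The series record speaks of cells of 4 rats and their controls, but no label ties a Sirt6-KD library to a Sirt6-Ctrl library.

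Ribosomal proteins are made in near-equal numbers, and each cytosolic ribosome joins a large subunit, which forms peptide bonds, to a small subunit, which decodes the mRNA. Their mRNAs belong to the class with a 5′ terminal oligopyrimidine (TOP) tract, a cytosine at the cap followed by a run of pyrimidines. Through this tract the kinase complex mTORC1 and the RNA-binding protein LARP1 set how well these mRNAs are translated and how stable they are, while the transcription factor MYC is known to raise the transcription of many of these genes.

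The tract could be read at the annotated starts, since 56 of the 70 members had a promoter entry in the RefSeq table of the GRCr8 assembly. The motif searched was a C followed by at least 5 bases that are each C or T, within 20 bases on either side of the start, a form chosen after the data and some of these start sequences had been seen. It was found for 47 of the 56 members (83.9%), against 27.8% of all 33469 promoters of the table. On the other strand the same search gave 16.1% of the members and 31.2% of all promoters. An annotated first base that was itself a C followed by 4 pyrimidines was found for 20 members (35.7%), against 2.63% of all promoters. The windows below run from 15 bases before the start to 15 bases from it, 5′ to 3′ on the strand of the gene, with the longest run in capitals, and they show members of both ends of the fold changes described later.
Rps21, chr3:187724023-187724052, plus strand: gaacgagccaCTTCCTTTCTgtgttctccg
Rpl37a, chr9:81748076-81748105, plus strand: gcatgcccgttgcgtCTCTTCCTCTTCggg
Rplp0, chr12:46718376-46718405, minus strand: gaccgcaccgcaCTTCTCTCgccaggcgtc
Rpl10, chrX:157205835-157205864, plus strand: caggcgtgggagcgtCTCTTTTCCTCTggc
Rpl12, chr3:36661925-36661954, plus strand: ggagcaacatccgtCTTTTCggctttcggt
Rpl3, chr7:113507976-113508005, minus strand: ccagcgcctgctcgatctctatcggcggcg
Rpl41, chr7:1563483-1563512, minus strand: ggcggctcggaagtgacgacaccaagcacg
In Rpl10 and Rpl37a the run began at the annotated first base, and in Rps21, Rplp0 and Rpl12 it spanned it. Rpl3 and Rpl41 had no such run within 20 bases of their annotated starts, which says only that these letters are not in this window.

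Some facts of the libraries touch the results below. Total counts were 31994838 to 40124813 per library, so that 3 counts equal 0.0727 to 0.0928 CPM (reads scaled to a common library size by TMM). Spike-ins, synthetic RNAs added to the samples, took 6.27% of the counts in S1 and 9.80% in S2, against 2.97% to 3.08% in S4 and S3 and 2.15% to 2.47% in Sirt6-KD. The methods of the study do not state how much was added to each library. S1 and S2 stood apart from the other libraries in spike-in share, and many of the results below are also given without them. That fit keeps only S3 and S4 as controls beside the 4 Sirt6-KD libraries. A call lost in it is therefore not by itself a sign that the result rested on S1 and S2. A result given only with all libraries is not thereby one that held without S1 and S2. Sirt6 itself, the gene targeted, had 1755 to 1964 reads in Sirt6-Ctrl and 695 to 753 in Sirt6-KD. The log2 ratio of its levels was -1.35 (standard error, SE, 0.13, edgeR adjusted p = 0.000713). Of the 18 NP marker genes listed, 10 had a named row and were tested, of which Krt8 and Car3 were called lower and Slc2a1 and Cd44 higher by the test described below, and without S1 and S2 only Car3 was still called. Acan was at 4.54, 15.49, 8.83 and 55.65 CPM in S1 to S4 and Sox9 at 4.68 to 15.74 CPM, whereas Krt18, Krt19, T and Col2a1 had none and were not analysed here. Of the 6 macrophage genes listed 3 had a named row (Cd68, Csf1r and Cd14), with a summed level of 11.9 to 29.7 CPM in Sirt6-Ctrl and 14.97 to 23.9 CPM in Sirt6-KD, the endothelial gene Tek was at most 0.59 CPM in any library, and none of the 7 erythroid genes had a named row. Of the 5 bone genes listed 2 were tested, and Runx2, a transcription factor of bone and hypertrophic cartilage cells, was at 11.17 to 19.93 CPM in Sirt6-Ctrl and 24.44 to 28.68 CPM in Sirt6-KD, with a log2 fold change of 0.83 (SE 0.21, edgeR adjusted p = 0.0208) that lost its call without S1 and S2 (0.79, edgeR adjusted p = 0.0591). The part of these marker levels in the results was not tested.

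Ribosomal protein mRNA differed more between Sirt6-Ctrl libraries than between the groups. The members together took 4.34%, 5.40%, 3.39% and 2.87% of the gene counts in S1 to S4. In Sirt6-KD they took 4.18%, 3.98%, 3.497% and 3.33% in S5 to S8. The groups overlapped, with a mean of 4.00% ± 1.11 in Sirt6-Ctrl and 3.75% ± 0.40 in Sirt6-KD (SD, n = 4 per group), and S2 and S4, the highest and the lowest library, were both controls. Within bulk RNA, fewer cells with these mRNAs and less of them per cell cannot be told apart.

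**Figure D1:**
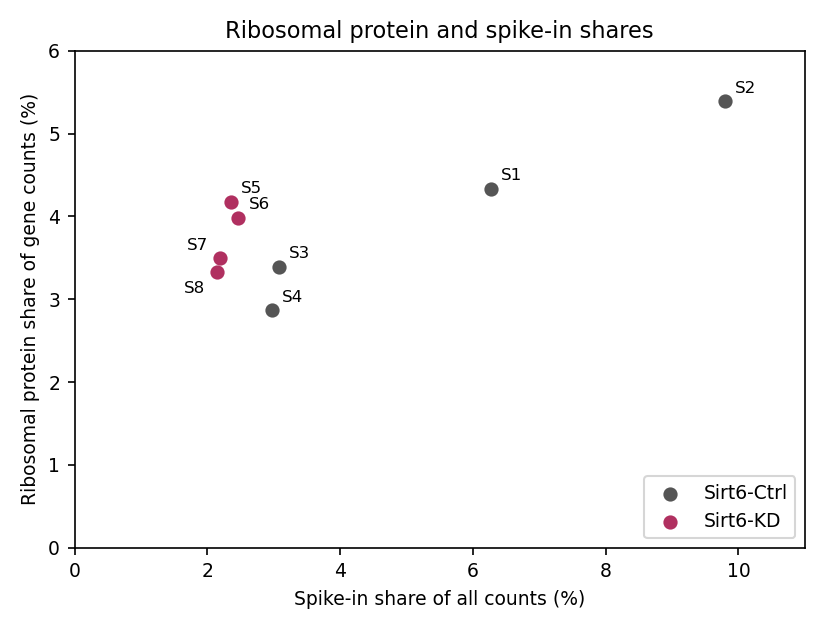
Each point is 1 library, with its spike-in share of all counts (%) on the x axis and the share of ribosomal protein reads among gene counts (%) on the y axis, Sirt6-Ctrl in grey and Sirt6-KD in red. S1 and S2 hold the highest spike-in shares (6.27% and 9.80%) and the highest ribosomal protein shares (4.34% and 5.40%).

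The 2 libraries with the highest spike-in share also had the highest share of ribosomal protein mRNA, and the part of the spike-in share in the result was not tested.

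The counts split the members into 57 with a mean of at least 50 CPM, which spanned 88.7 to 2299 CPM, and 13 with a mean of 0.293 to 10.1 CPM. The 50 CPM limit was chosen after the levels were seen. The 13 were Rpl7a, Rpl8, Rpl9, Rpl35a, Rpl36a, Rpl37, Rpl38, Rpl39, Rplp2, Rps6, Rps18, Rps19 and Rps29. Ribosomal protein genes have many near-identical processed copies in the genome, and how reads that fit several places were counted is not given in the sources used here, so these 13 levels are uncertain as levels of the named genes. Rps6, the small-subunit protein phosphorylated by the S6 kinases, had 272 to 580 reads per library. Rps19, a small-subunit protein mutated in Diamond-Blackfan anemia, had 13 to 224 reads, and Rplp2, a P-stalk protein, had 11 to 38. Rpl38, a large-subunit protein known for its part in the translation of Hox mRNAs, had 0 to 30 reads and did not pass the filter on low counts, which left 69 members tested. The members with the highest mean CPM were Rplp0 (2299), Rps16 (2185) and Rpsa (1631), which are levels per library and not per transcript length.

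The levels of the 57 moved together from library to library. S2 was the highest library for 56 of the 57, and S4 was the lowest for 45. Centred on each gene's own mean, the median of the 57 was 0.75 (log2 CPM) in S2 and -0.41 in S4, a 2.24-fold span between controls. In Sirt6-KD these medians were 0.14, 0.02, -0.26 and -0.22 in S5 to S8. Over the 8 libraries the median Pearson correlation of pairs of these genes was 0.936, which describes 8 points that share library, depth and scaling. Rpl3 had the lowest correlation with the mean of the others, 0.316, and Rpl12 was at 0.778 and Rps4x at 0.804. The coefficient of variation was larger in Sirt6-Ctrl than in Sirt6-KD for 57 of the 57, with a median of 37.9% against 11.7%, whereas over all 13250 genes tested it was larger in Sirt6-Ctrl for 11345, with medians of 32.03% and 14.6%.

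**Figure D2:**
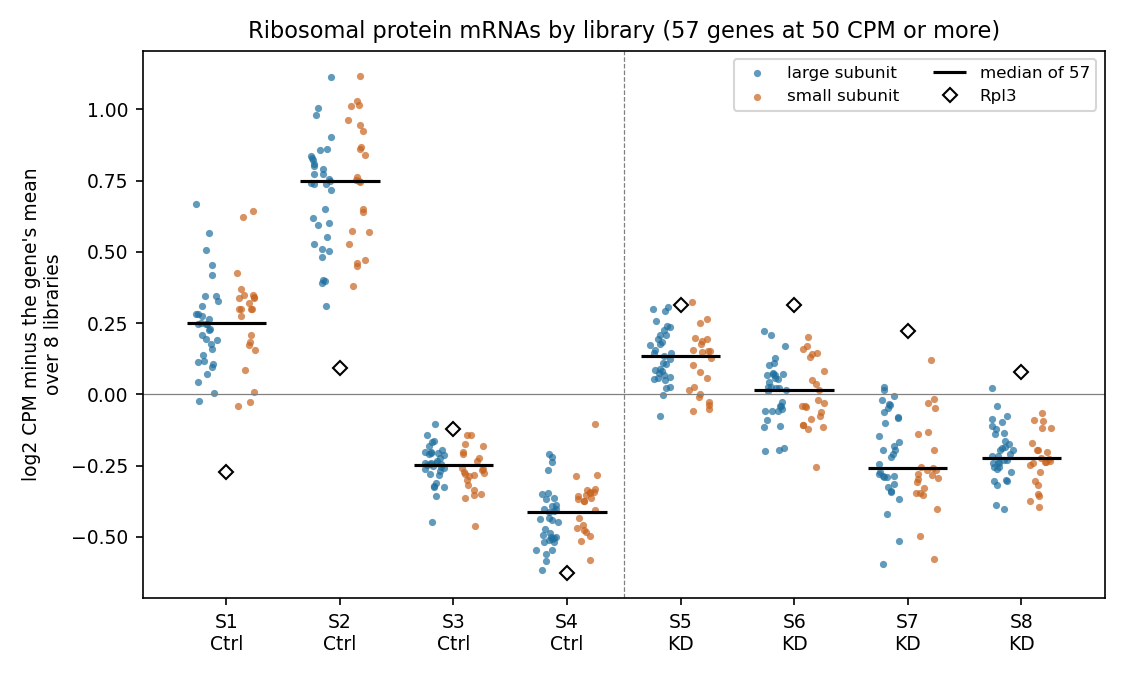
The y axis gives log2 CPM minus the mean of the gene over the 8 libraries, for 57 ribosomal protein genes in each library on the x axis (blue for the large and orange for the small subunit, black bar for the median of the 57, open diamond for Rpl3). The medians run from 0.75 in S2 to -0.41 in S4, and Rpl3 lies below the median in S1, S2 and S4 and above it in every Sirt6-KD library.

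In the comparison of Sirt6-KD with Sirt6-Ctrl no member passed the test. The edgeR quasi-likelihood test with Benjamini-Hochberg adjustment over all rows called 0 of 69 members lower and 0 higher with limits of 0.05 on the adjusted p and 1.5 on the fold, against 10.7% of all genes called lower and 8.02% called higher. Without the fold limit the counts were also 0 and 0, against 12.8% lower and 9.11% higher of all genes. At an unadjusted p below 0.05 edgeR gave 2 members lower (Rps21 and Rpl36) and 1 higher (Rpl3), against 2708 lower and 2138 higher of the 13250 genes tested. For the members limma-voom gave 1 and 1 and DESeq2 gave 3 and 1, for which the counts over all genes are not given here. After adjustment DESeq2 called 1 member lower, Rps21 (adjusted p = 0.0457), against 9.3% of all genes. It gave Rpl3 an adjusted p of 0.0364 with a fold change under the limit. No member had groups without overlap, against 30.4% of all genes tested. The 95% interval of the fold change held 0 for 66 of the 69, and for 14 it lay within 1.5-fold in both directions.

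The fold changes themselves leaned to the negative side with all 8 libraries. They were negative for 56 members and positive for 13, with a median of -0.24 (log2), against -0.02 over all genes tested. The median was -0.18 for the 42 large-subunit members tested and -0.27 for the 27 small-subunit members. Without S1 and S2 the median turned to 0.26, with 66 of 70 members positive, and without S2 alone it was 0.05. Scaled by the spike-in counts it was 0.94, as was the median of all genes (0.94). With the correction for gene length it was 0.00, against -0.16 over all genes in that fit.

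**Figure D3:**
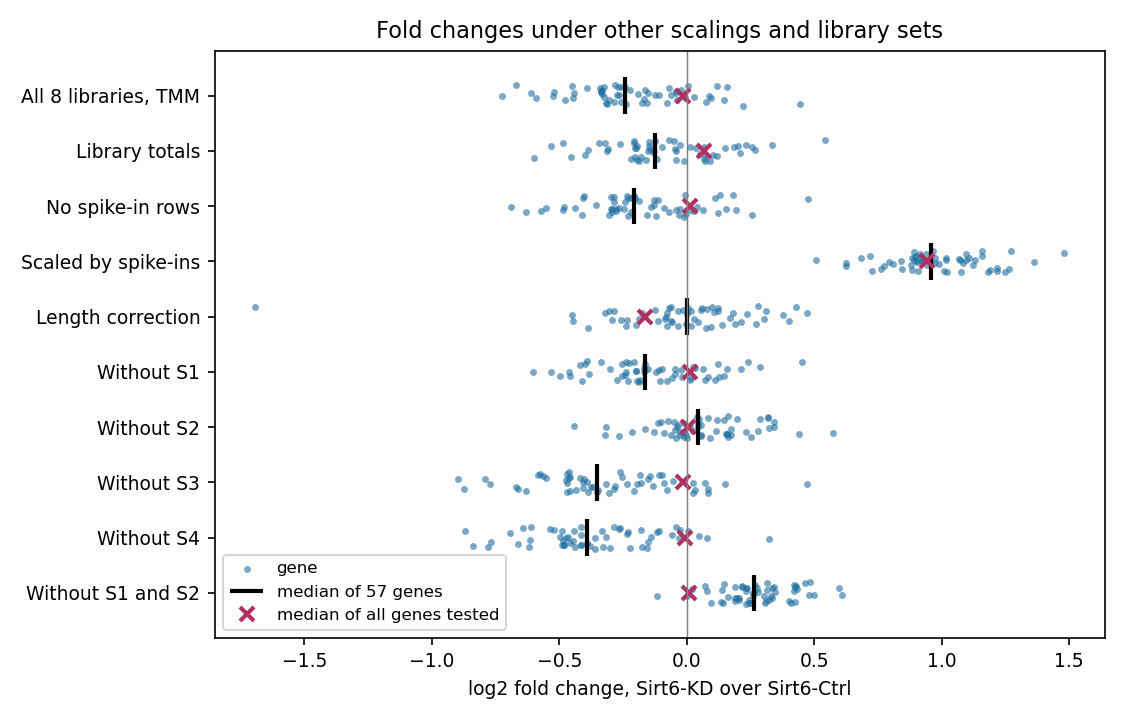
Log2 fold changes (x axis) of the 57 ribosomal protein genes at 50 CPM or more under 10 scalings or sets of libraries (rows), with the median of the 57 as a black bar and the median of all genes tested as a red cross. The median of the 57 is -0.24 with all libraries, 0.04 without S2 and 0.26 without S1 and S2, and with spike-in scaling the 57 and all genes shift together.

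Rps21, a small-subunit protein needed for the processing of the small-subunit rRNA, had the smallest p among the members with a negative fold change. Its level was 308, 398, 164 and 183 CPM in S1 to S4 and 189, 165, 132 and 149.9 CPM in S5 to S8. S1 and S2 were well above the rest and the groups overlapped. The log2 fold change was -0.73 (SE 0.27, 95% interval -1.31 to -0.14, edgeR adjusted p = 0.0741), and it was -0.12 without S1 and S2 (edgeR adjusted p = 0.662).

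Rpl41, which codes for the smallest ribosomal protein, had a similar pattern. It was at 874, 1189, 403 and 467 CPM in S1 to S4 and at 582, 479, 364 and 419.8 CPM in S5 to S8. The Sirt6-KD range lay across S3 and S4 and below S1 and S2. The log2 fold change was -0.67 (SE 0.32, edgeR adjusted p = 0.157), and 0.10 without S1 and S2.

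Rpl36 and Rpl37a, proteins of the large subunit, had log2 fold changes of -0.61 (SE 0.27, edgeR adjusted p = 0.128) and -0.52 (SE 0.24, edgeR adjusted p = 0.145). Rpl36 was at 133, 177, 74.95 and 77.1 CPM in S1 to S4 and at 92.9, 78.5, 62.8 and 67.9 CPM in S5 to S8. Without S1 and S2 both fold changes were near 0, at 0.00 for Rpl36 and 0.02 for Rpl37a. With S3 left out, Rpl36, Rpl37a, Rpl41 and Rps21 were called lower (edgeR adjusted p = 0.0443, 0.0492, 0.0432 and 0.0188), and with S4 left out Rps21 was (0.0433). Of all genes, 14.1% were called lower without S3 and 10.9% without S4.

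Rpsa, a small-subunit protein also known as a laminin receptor, had one of the widest control ranges. It was at 1992, 3146, 1334 and 1216 CPM in S1 to S4 and at 1491, 1419, 1258 and 1190 CPM in S5 to S8. The log2 fold change of -0.52 (SE 0.28, edgeR adjusted p = 0.199) was 0.08 without S1 and S2.

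Rpl3, a large-subunit protein that lies near the peptidyl transferase centre, was the member with a positive fold change and the smallest p. Its level was 1034, 1332, 1147 and 808 CPM in S1 to S4 and 1550, 1551, 1454 and 1319 CPM in S5 to S8. Only S2 of the controls reached the Sirt6-KD range, where it exceeded S8. The log2 fold change was 0.44 (SE 0.17, 95% interval 0.07 to 0.81, edgeR adjusted p = 0.0818). Without S1 and S2 it was 0.60 and passed both limits (edgeR adjusted p = 0.0424), and the adjusted p was also below 0.05 with library totals (0.0294), with upper-quartile factors (0.0444) and without S2 (0.0290).

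Rpl12, a protein at the base of the P stalk, where the elongation factors bind, was at 760.0, 1001, 607 and 495 CPM in S1 to S4. In S5 to S8 it was at 937, 875, 755 and 771 CPM. Every Sirt6-KD library lay above S3 and S4 and below S2, and S1 lay within their range. Its log2 fold change was 0.22 (SE 0.21, edgeR adjusted p = 0.477) and without S1 and S2 it was 0.61 (edgeR adjusted p = 0.0291).

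Rpl10, a late-joining protein of the large subunit, and Rpl15 also had positive fold changes, of 0.15 (SE 0.20, edgeR adjusted p = 0.642) and 0.16 (SE 0.18, edgeR adjusted p = 0.560). Rpl10 was at 1069, 1360, 877 and 704 CPM in S1 to S4 and at 1199, 1209, 1056 and 969.6 CPM in S5 to S8. Without S1 and S2, Rpl15 had a log2 fold change of 0.48 with an adjusted p below 0.05 (edgeR, 0.0454) and a fold under the limit.

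Members with known roles outside the ribosome did not pass the test either. Rpl5 and Rpl11 form with 5S rRNA the particle that binds MDM2 and so stabilises p53. Rpl5 was at 1037, 1457, 806 and 649 CPM in S1 to S4 and at 967, 977, 906 and 816 CPM in S5 to S8, with a log2 fold change of -0.11 (95% interval -0.61 to 0.39). Rpl11 was at 499.5, 634, 365 and 318 CPM in S1 to S4 and at 473, 427, 367 and 356 CPM in S5 to S8, with a log2 fold change of -0.16 (95% interval -0.63 to 0.31). Both Sirt6-KD ranges lay inside the control range, and both fold changes turned positive without S1 and S2, at 0.34 and 0.26.

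Rplp0, the core of the P stalk and often used as a reference gene in quantitative PCR, was at 2566, 2988, 1900 and 1765 CPM in S1 to S4 and at 2510, 2383, 2147 and 2137 CPM in S5 to S8. The means of 2305 ± 575 and 2294 ± 184 CPM (SD, n = 4 per group) differed by a log2 fold change of -0.01 (95% interval -0.42 to 0.41). Without S1 and S2 the difference was 0.33, so the position of this gene relative to the groups depended on those libraries.

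Rps27a, which is made as a fusion with ubiquitin, had a log2 fold change of -0.44 (95% interval -1.03 to 0.14), and Rps14 one of -0.33 (95% interval -0.89 to 0.23). Rpl22, whose human counterpart binds a viral small RNA, was at -0.33 (95% interval -0.89 to 0.22) and Rpl13a, part of an interferon-dependent translational silencing complex, at -0.24 (95% interval -0.69 to 0.21). Rps4x, whose gene lies on the X chromosome, was at 0.12 (95% interval -0.33 to 0.57). These 5 genes overlapped between the groups, and without S1 and S2 their fold changes were 0.14, 0.21, 0.19, 0.15 and 0.46.

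**Figure D4:**
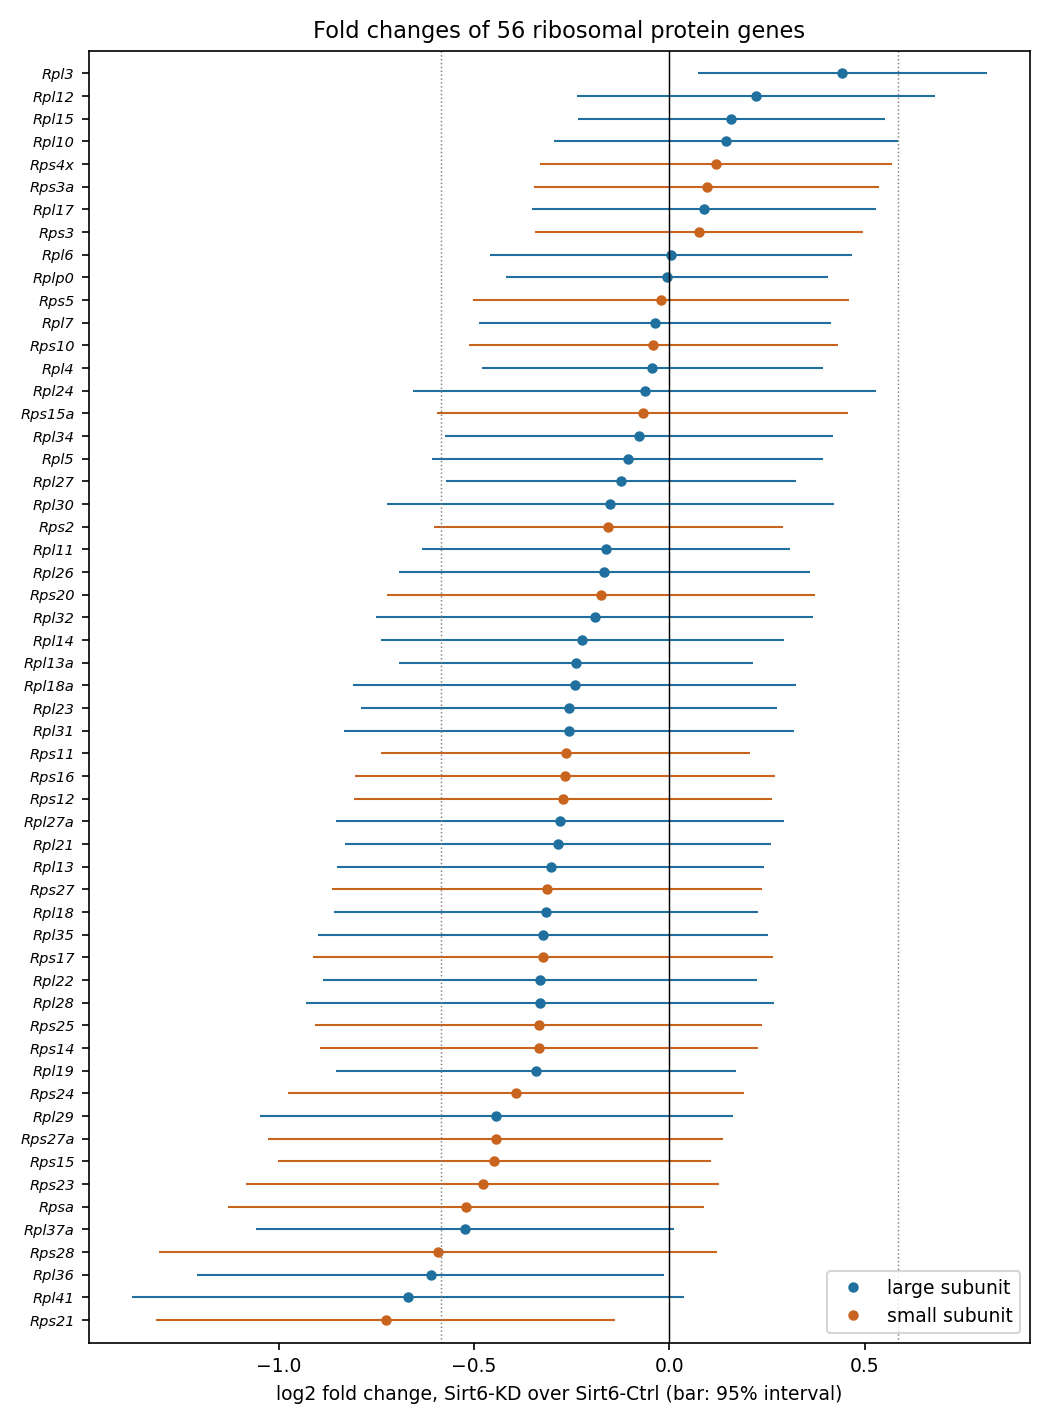
Log2 fold change, Sirt6-KD against Sirt6-Ctrl (x axis), for 56 of the 57 ribosomal protein genes at 50 CPM or more, ordered by value, with 95% intervals as bars (blue for the large, orange for the small subunit) and dotted lines at a fold of 1.5. The values run from -0.73 (Rps21) to 0.44 (Rpl3), and the intervals of Rps21, Rpl36 and Rpl3 exclude 0.

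The low-count members spanned a wider range with wide errors. Rps19 had a log2 fold change of -1.21 (SE 0.89), with 224 of its reads in S2 alone and 13 to 53 in the other controls. Rpl39 was at -0.73 (SE 0.83), Rpl9 at 0.50 (SE 0.72) and Rpl7a at 0.45 (SE 0.40). Rps6 was at -0.25 (SE 0.31), Rplp2 at -0.11 (SE 0.71), Rpl35a at -0.20 (SE 0.97) and Rps29 at -0.25 (SE 0.80). The SE of the 12 low-count members tested ran from 0.31 for Rps6 to 0.97 for Rpl35a, against 0.17 to 0.32 for the 57. With S1 and S2 left out, Rpl39 (0.43), Rps6 (0.26) and Rps29 (0.05) turned positive. Rps19 (-0.31), Rplp2 (-0.21), Rpl35a (-0.66), Rpl9 (0.61) and Rpl7a (0.32) kept their signs in that fit.

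Because a common shift of all members carries the differences between libraries, each member was also expressed as a percent of the reads of the 69 members. In these shares the controls were much more alike, with a median coefficient of variation of 7.11% in Sirt6-Ctrl and 4.36% in Sirt6-KD over the 57 genes. The shares sum to 100% in a library, so a higher share of some genes goes with a lower share of others. With this scaling 7 of the 57 (12.3%) lay higher in every Sirt6-KD library than in every Sirt6-Ctrl library, against 10.1% of the genes at 50 CPM or more and 8.82% of all genes tested. Another 13 of the 57 (22.8%) lay lower in every Sirt6-KD library, against 14.2% and 9.48%. This scaling takes the common swing between libraries out of the members and puts it into the other genes. The percentages of other genes under it are therefore not a like background, and neither excess nor likeness is read from them. The edgeR fit scaled in this way called 0 members either way, against 2.43% of all genes called lower and 0.657% called higher. The smallest adjusted p of a member was 0.116. At an unadjusted p below 0.05 it gave 3 members lower and 2 higher, for which the count over all genes is not given here.

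Those with a higher share included Rpl3, Rpl12, Rpl10, Rpl15, Rpl17 and Rps3a. Rpl3 made up 2.45%, 2.30%, 3.70% and 2.98% of the ribosomal protein reads in S1 to S4 and 3.89%, 4.12%, 4.46% and 4.12% in S5 to S8. Its log2 fold change relative to the members was 0.54 (SE 0.19, edgeR adjusted p = 0.145). Rpl12 made up 1.798%, 1.73%, 1.96% and 1.83% in S1 to S4 and 2.35%, 2.33%, 2.31% and 2.41% in S5 to S8, a relative log2 fold change of 0.36 (SE 0.15, edgeR adjusted p = 0.207). For both the gap between the groups did not need S1 or S2, as S3 and S4 also lay below all Sirt6-KD libraries.

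The 13 with a lower share were Rps21, Rpl36, Rpl37a, Rpsa, Rps23, Rps15, Rps27a, Rpl29, Rpl19, Rpl22, Rpl18, Rpl21 and Rps16. Rps21 made up 0.729%, 0.686%, 0.529% and 0.677% in S1 to S4 and 0.475%, 0.440%, 0.405% and 0.468% in S5 to S8, a relative log2 fold change of -0.55 (SE 0.18, edgeR adjusted p = 0.116). Rpsa made up 4.71%, 5.43%, 4.31% and 4.49% against 3.74%, 3.77%, 3.86% and 3.72%, with a relative log2 fold change of -0.33 (SE 0.15, edgeR adjusted p = 0.249). The share of Rpl5 did not separate the groups, with 2.45%, 2.52%, 2.60% and 2.40% against 2.43%, 2.60%, 2.78% and 2.55%.

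**Figure D5:**
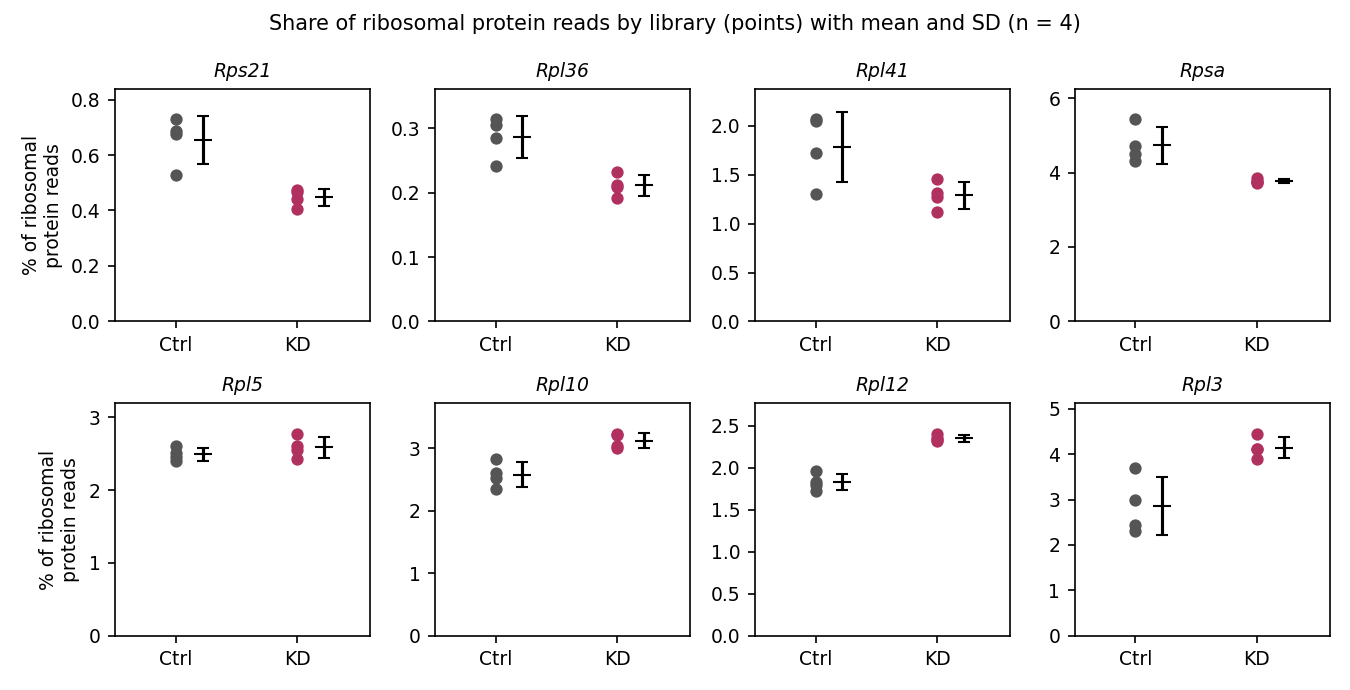
Share of the ribosomal protein reads (%, y axis from 0) of 8 genes in each Sirt6-Ctrl (grey) and Sirt6-KD (red) library, with the mean and SD (n = 4) beside the points. Rps21, Rpl36 and Rpsa are lower and Rpl10, Rpl12 and Rpl3 higher in every Sirt6-KD library, while Rpl41 and Rpl5 overlap.

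The ratio of large-subunit to small-subunit reads was 1.36, 1.31, 1.40 and 1.35 in S1 to S4 and 1.45, 1.42, 1.45 and 1.44 in S5 to S8. The Sirt6-KD libraries were all above the Sirt6-Ctrl libraries, with means of 1.44 ± 0.01 and 1.36 ± 0.04 (SD, n = 4 per group) and a difference of 0.085. When the reads of Rpl3 were left out the difference was 0.051, with S3, the highest control, at 1.315 beside S6, the lowest Sirt6-KD library, at 1.321. Rpsa, of the small subunit, made up 4.73% of the ribosomal protein reads in Sirt6-Ctrl and 3.77% in Sirt6-KD on average. The ratio without both genes is not given here, so the separation is not read as a shift of whole subunits. By share, 5 of the 34 large-subunit members at 50 CPM or more lay higher in every Sirt6-KD library and 7 lay lower. Of the 23 small-subunit members at that level, 2 lay higher and 6 lower. The same scaling put 10.1% of all genes at 50 CPM or more higher and 14.2% lower, which is not a like background for the reason given above. The ratio of large-subunit to small-subunit reads was looked at after the data were seen and carries no test.

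The fold changes were also read by the pyrimidine run at the start. The median log2 fold change was -0.26 for the 46 tested members with a run, -0.16 for the 9 without one and -0.18 for the 14 with no promoter entry. The 2 members without a run that are shown above had opposite signs, 0.44 for Rpl3 and -0.67 for Rpl41.

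The genes around the ribosomal proteins were taken from lists of relatives, translation factors, other TOP mRNAs, RNA polymerase I, ribosome biogenesis, TOP control and the Myc network. Over these lists, each gene once, edgeR called 46 of 232 tested genes lower and 5 higher, and the median log2 fold change was -0.26. Of all genes tested 10.7% were called lower and 8.02% higher, which is the background for the counts of each list below. The counts were 13 and 3 without S1 and S2, against 5% and 5.71% of all genes. Spike-in scaling moved the median of all genes from -0.02 to 0.94 and left 0.0302% of all genes called lower and 0.151% higher, so the counts of 0 and 0 for the lists under it stand beside few calls of any gene, and the signs it gives below include that common shift.

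The close relatives of the members held 2 of 10 tested genes called lower and 0 higher. They were Rsl24d1, a biogenesis factor related to Rpl24, with a log2 fold change of -0.68 (SE 0.18, edgeR adjusted p = 0.0241), and Rps27l, a p53-responsive relative of Rps27, with -0.64 (SE 0.19, edgeR adjusted p = 0.0331). Both lost the call without S1 and S2, and both were positive with spike-in scaling. Rack1, a small-subunit scaffold protein, was at 0.12 (SE 0.21, edgeR adjusted p = 0.717). It was at 0.51 without S1 and S2 (edgeR adjusted p = 0.0475), a fold under the limit.

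Other mRNAs of the TOP class had 1 of 17 tested genes called higher and 0 lower. This was Pabpc1, the poly(A)-binding protein, at 1061, 1270, 1351 and 998 CPM in S1 to S4 and 2330.4, 2209, 2009.8 and 1985 CPM in S5 to S8. Its log2 fold change was 0.87 (SE 0.15, edgeR adjusted p = 0.00537), the call held without S1 and S2 (edgeR adjusted p = 0.0115), and with spike-in scaling the value was 1.83, which did not pass. Eef1a1 and Eef2, the elongation factors that deliver tRNA and move the ribosome, lay above the controls in every Sirt6-KD library. Their log2 fold changes of 0.47 (edgeR adjusted p = 0.0727) and 0.39 (edgeR adjusted p = 0.112) did not pass the test. The elongation list as a whole had 1 of 12 genes called lower, Eif5a2, at -0.67 (SE 0.17, edgeR adjusted p = 0.0205), and 0 higher. Eif5a2 lost its call without S1 and S2 (edgeR adjusted p = 0.0535), and it was at 0.33 with spike-in scaling.

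Initiation factors had 9 of 37 tested genes called lower and 1 higher, the latter being Pabpc1. Eif5b, which joins the subunits, had a log2 fold change of -1.36 (SE 0.26, edgeR adjusted p = 0.00810), with 361, 490, 206 and 208 CPM in S1 to S4 and 130.1, 115, 128 and 122 CPM in S5 to S8. Eif4e, the cap-binding protein, was at -0.62 (SE 0.14, edgeR adjusted p = 0.0122), Eif4a3, a helicase of the exon junction complex, at -0.83 (SE 0.15) and Eif2b2, a subunit of the eIF2 exchange factor, at -0.78 (SE 0.17). Eif5b kept its call without S1 and S2, whereas Eif4e, Eif4a3 and Eif2b2 lost theirs, which left 1 initiation factor called lower and 1 higher. In that fit Eif4a3 (-0.55, edgeR adjusted p = 0.0174) and Eif4e (-0.48, edgeR adjusted p = 0.0273) lost the call by the fold limit alone. Eif2b2 was at -0.58 (edgeR adjusted p = 0.0519). Eif4e, Eif4a3 and Eif2b2 were positive with spike-in scaling.

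Ribosome biogenesis factors had 19 of 106 tested genes called lower and 0 higher, with a median log2 fold change of -0.35. Rrp12 was at 66.2, 65.0, 48.8 and 51.7 CPM in S1 to S4 and 22.6, 22.5, 19.8 and 28.1 CPM in S5 to S8, with a log2 fold change of -1.32 (SE 0.17, edgeR adjusted p = 0.00217). Utp3 was at -1.21 (SE 0.20, edgeR adjusted p = 0.00435), Rrp15 at -1.25 (SE 0.23) and Ddx27 at -0.87 (SE 0.15). These 4 kept their calls without S1 and S2, where 6 genes of the list were called lower and 1 higher. With spike-in scaling Rrp12 was at -0.26, Utp3 at -0.06 and Ddx27 at 0.21. The abundant nucleolar proteins nucleolin (Ncl) and fibrillarin (Fbl) were not called, at 0.31 (edgeR adjusted p = 0.198) and 0.18 (edgeR adjusted p = 0.520).

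Genes of RNA polymerase I and its factors had 5 of 20 tested called lower and 1 higher. Those called lower included Polr2e, Polr2f and Polr2k, subunits shared by all nuclear RNA polymerases, at -1.16 (SE 0.20), -0.74 (SE 0.19) and -1.03 (SE 0.26), and Taf1a at -1.19 (SE 0.33). With spike-in scaling the 3 shared subunits were at 0.00, 0.35 and 0.15. Rrn3, which recruits the polymerase to rDNA, was called higher at 0.68 (SE 0.20, edgeR adjusted p = 0.0329), and Polr1a, the largest subunit of polymerase I, was at 0.18 (SE 0.20). Leaving out S1 and S2 ended the calls of Polr2f (-0.48, edgeR adjusted p = 0.0693), Polr2k (-0.52, edgeR adjusted p = 0.130) and Rrn3 (0.47, edgeR adjusted p = 0.0912), while Polr2e and Taf1a kept theirs. In that fit 2 genes of the list were called lower and 1 higher, the latter a gene not named here.

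Of the mTORC1 and TOP control genes, 9 of 30 tested were called lower and 1 higher. Mknk2, a kinase that phosphorylates eIF4E, had 167, 175, 146 and 162 CPM in S1 to S4 and 77.7, 69.1, 83.1 and 75.3 CPM in S5 to S8, a log2 fold change of -1.09 (SE 0.12, edgeR adjusted p = 0.000986). Its relative Mknk1 was called higher at 0.69 (SE 0.19). The mTORC1 activator Rheb was at -0.68 (SE 0.13), the inhibitor Akt1s1 at -0.96 (SE 0.17) and the stress-induced inhibitor Sesn2 at -0.66 (SE 0.14), so genes called lower included activators and inhibitors. Larp1 was higher in every Sirt6-KD library at 0.45 (SE 0.13, edgeR adjusted p = 0.0302), a fold under the limit, and Mtor was at 0.29 (SE 0.16, edgeR adjusted p = 0.215). The fit without S1 and S2 ended the calls of Mknk1 (0.54, edgeR adjusted p = 0.0743), Rheb (-0.48) and Sesn2 (-0.50), all with folds under the limit, and the list held 4 called lower and 0 higher, Mknk2 and Akt1s1 among them. With spike-in scaling Rheb, Akt1s1 and Sesn2 were positive.

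The Myc network had 1 of 11 tested genes called lower and 2 higher. Myc was at 109.9, 90.1, 126 and 67.3 CPM in S1 to S4 and at 183, 174, 147 and 129 CPM in S5 to S8, with a log2 fold change of 0.69 (SE 0.20, edgeR adjusted p = 0.0324). Without S1 and S2 the fold change was 0.72 and the call was lost (edgeR adjusted p = 0.0897). Mlxip was called higher at 0.78 (SE 0.24), and Mxd4, which competes with Myc for its partner Max, was called lower at -1.001 (SE 0.27) and was at 0.05 with spike-in scaling. Mlxip (0.60, edgeR adjusted p = 0.141) and Mxd4 (-0.85, edgeR adjusted p = 0.113) lost their calls without S1 and S2 too, which left 0 genes of this list called.

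The proteins of the mitochondrial ribosome form the most similar group by function. Of the 71 Mrpl and Mrps genes tested, 26 were called lower and 0 higher, with a median log2 fold change of -0.66, against 0 and 0 of 69 and -0.24 for the cytosolic ribosomal protein genes and 10.7% and 8.02% of all genes called. In the fit without S1 and S2, 6 of the 71 were called lower and 0 higher, against 5% and 5.71% of all genes, with a median of -0.32. The difference between these groups of genes was not tested.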

How the data were processed

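The authors deposited raw counts per gene and spike-in of 8 RNA-seq libraries, without normalization. The submitters' processing notes name Trimmomatic 0.36, STAR 2.5.2b, featureCounts of Subread 1.5.2, DESeq2 and the genome build Rnor_6.0. Strand and multi-mapping settings are not given in the sources used here. A second deposited table holds the authors' fold ratios, p-values and size-factor-scaled signal, of which only the gene names were used. From the raw counts, low rows were removed by filterByExpr (edgeR 4.0.16, R 4.3.3), leaving 13313 rows with 63 spike-ins, and the libraries were scaled by TMM. Groups were compared by the two-sided quasi-likelihood test with Benjamini-Hochberg adjustment over these rows. CPM is TMM-scaled. A fold change is Sirt6-KD over Sirt6-Ctrl on the log2 scale. Alternatives used DESeq2 1.42.0, limma-voom (limma 3.58.1), other scalings, filters and library sets. The fit was tested on simulated data.

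The members and gene lists were chosen with earlier results of these data known. Genes with full statistics were chosen by rule: 16 members with a known role (Rplp1 had no row), the 5 with the smallest p in each direction (none was called), the 3 with the highest and lowest CPM, the 3 farthest above and below the median fold change, Sirt6, 11 translation genes (Fau had no row; values of 1 and of 1 member are not reported here) and, per list, up to 4 called genes in each direction. The libraries of a group came from separate samples, but no label says which animal each came from, so p-values measure the spread between these samples. Depth, 31994838 to 40124813 counts per library, sets a floor that covers counting error only. Genes were matched to RefSeq start sites by symbol.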

Additional observations from a re-analysis of the deposited data

Results flagged for a closer look

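In groups of 4 libraries, the highest or lowest value was compared with its nearest neighbour as a share of the group's range, and 9 of 168 groups tested passed Dixon's critical value, where chance passes about 1 in 20. Of the low-count members, Rps19 was at 6.93 CPM in S2 against at most 1.41 CPM in the other Sirt6-Ctrl libraries, and Rpl39 was at 9.84 CPM in S2 against at most 2.44 CPM. Rpl9 was at 1.85 CPM in S7 against at most 0.781 CPM in the other Sirt6-KD libraries, and Rplp2 was at 1.01 CPM in S8 against at most 0.657 CPM. Rpl11 made up 1.09% of the ribosomal protein reads in S2 against at least 1.18% in the other Sirt6-Ctrl libraries, and Rps27a made up 1.12% in S8 against at most 1.03% in the other Sirt6-KD libraries. Among the translation genes, Eif4e was at 152 CPM in S2 against at most 116 CPM, Mlxip at 16.2 CPM in S3 against at most 9.65 CPM, and Rrp15 at 19.3 CPM in S7 against at least 22.6 CPM in the rest of their groups. These values were not weighed further.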

How the results depend on the processing

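The sign of the median log2 fold change of the members (-0.24) turned with spike-in scaling (0.94), the gene-length correction (0.00, or 0.0037 unrounded, against -0.16 for all genes), and without S1 and S2 (0.26), and it ranged from -0.37 to 0.052 with 1 library left out. Members called lower (0) were 1 with DESeq2 and 1 with the length correction, against 9.3% and 14.3% of all genes. With the length correction this was Rpl29, whose annotated span of 893235 bases is far above the others. Members called lower were 0 to 4 with 1 library left out, against 5.15% to 14.1% of all genes. The counts at an adjusted p below 0.05 alone were the same on the lower side (1, 1 and 0 to 4), and on the higher side (0) they were 1 with DESeq2, 1 with upper-quartile factors, 1 with library totals, 3 without S1 and S2, and 0 to 1 with 1 library left out. In the order of these fits, 8.58%, 8.35%, 7.65%, 5.71% and 3.28% to 12.5% of all genes were called higher with both limits. The shares of all genes at the adjusted p alone in these fits are not given here. Members called higher (0) were 2 without S1 and S2, against 5.71% of all genes. Translation-list genes called lower (46 of 232 tested) were 27 with library totals, 0 with spike-in scaling, 8 scaled by members, 13 without S1 and S2, and 16 to 59 with 1 library left out. In the same order, 8.33%, 0.0302%, 2.43%, 5% and 5.15% to 14.1% of all genes were called lower. Those called higher (5) were 8 with DESeq2, 8 with limma-voom, 0 with spike-in scaling, 0 scaled by members, 3 without S1 and S2, and 1 to 12 with 1 library left out. In the same order, 8.58%, 12%, 0.151%, 0.657%, 5.71% and 3.28% to 12.5% of all genes were called higher. Spike-in scaling moved the median of all genes from -0.02 to 0.94, so signs under it include that common shift, and the named genes called lower that became positive were Rsl24d1 (0.44), Rps27l (0.47), Eif5a2 (0.33), Eif4a3 (0.26), Eif2b2 (0.27), Eif4e (0.42), Polr2e (0.0021), Polr2f (0.35), Polr2k (0.15), Ddx27 (0.21), Akt1s1 (0.14), Rheb (0.36), Sesn2 (0.36) and Mxd4 (0.047). Of the 26 named members none was called, so sign changes are given as counts: 52 of the members changed sign without S1 and S2, 29 without S2, 22 with the length correction, and 0 to 12 under the alternatives other than spike-in scaling, whose common shift fixes the sign. Of the named translation genes, 15 lost their call without both S1 and S2. With 1 library left out, 12 lost it without S1, 7 without S2, 1 without S3, 5 without S4, 12 without S5, 10 without S6, 11 without S7 and 7 without S8, of 35 followed, and these were Eif4e, Eif5a2, Mknk1, Mlxip, Mxd4, Myc, Polr2f, Polr2k, Rheb, Rps27l, Rrn3, Rsl24d1, Sesn2 and Taf1a. The cause was not tested. No paired analysis was possible because the labels and count columns carry no number shared between the groups. Low counts limit most of the 13 members under 50 CPM, and that limit was added after the data were seen. The length correction used gene spans with introns, available for 85.9% of the genes tested.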
